A study of Mus musculus with 8 samples.

Results

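Chemokines of the CXC family and their receptors that draw T cells into tissue were followed in single cells of mouse colon tumours. The set consisted of 8 genes, taken by symbol from the 20275 gene symbols measured. It held 5 ligands (Cxcl9, Cxcl10, Cxcl12, Cxcl13 and Cxcl16) and 3 receptors (Cxcr3, Cxcr4 and Cxcr6). Cells had been index-sorted into wells by SORT-seq, a plate-based method that counts the 3′ ends of messenger RNAs with molecular identifiers, and 8 plates were analysed. Of these, 4 plates came from control mice (FibCtrl) and 4 from mice with Zeb1 deleted in fibroblasts (FibΔZeb1), 1 mouse per plate. Zeb1 encodes a transcription factor known for epithelial-mesenchymal transition. Both groups carried floxed Zeb1 alleles and received a tamoxifen diet, and the FibΔZeb1 mice also carried a tamoxifen-inducible Cre, which the sample labels call Col1a1Cre-ERT2 and the study's methods call Col1a2-CreERT2. Tumours arose from genetically engineered colon organoids that had been transplanted into the caecum of both groups. The numbers of wells given to epithelial, immune and stromal cells were fixed by the sort, so numbers of wells per cell class were not compared between genotypes.

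Chemokines are small secreted proteins that form gradients and steer leukocytes through G protein-coupled receptors. CXCL9 and CXCL10 are induced by interferon gamma and attract activated T cells and NK cells through CXCR3. CXCL12 is made by stromal cells and binds CXCR4, which retains leukocytes in bone marrow and tissue. CXCL13 attracts CXCR5-bearing B cells and follicular helper T cells and organises lymphoid follicles. CXCL16 is made as a membrane-anchored protein that can be shed by the proteases ADAM10 and ADAM17, and its receptor CXCR6 marks tissue-resident and effector T cells and innate lymphocytes.

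Levels are given as CPM, the transcripts of a gene per 1000000 cell transcripts, summed over all wells of a cell class on a plate, without spike-in and mitochondrial rows. Plates held between 981881 cell transcripts (FibCtrl 2) and 5905203 (FibCtrl 1), and 1831 of 3072 wells passed the filters, a minimum of 500 cell transcripts and a limit on mitochondrial reads of the plate's median plus 3 median absolute deviations. FibCtrl 2 stood apart, with 98 wells kept and a median of 221 transcripts per well before filtering. Wells were clustered without the 8 genes and named from marker genes that did not include them. The names were given to 380 epithelial-like, 256 neutrophil-like, 174 macrophage-like, 146 T cell-like, 145 fibroblast-like, 143 B cell-like, 32 NK or innate lymphoid-like, 32 dendritic-like, 27 pericyte-like, 11 mast cell-like and 34 mesothelial-like wells, and 414 wells stayed unnamed. The summed T cell markers reached 3306 CPM in T cell-like wells, 2983 CPM in NK or innate lymphoid-like wells and 265.5 CPM or less elsewhere, so that T and NK wells were not separated by this list. The NK or innate lymphoid-like cluster had Cd8a, a CD8 co-receptor gene, beside Ncr1 and Klrd1 among its leading genes. Whether it holds CD8 T cells was not tested. Leading genes of the T cell-like cluster included Ctla4, Icos, Foxp3 and Cd4. On FibCtrl 1, Cd4 was read in 33 of 46 T cell-like wells and Cd8a in 2, and no plate had more wells with Cd8a. Levels in T cell-like wells thus say little about CD8 T cells. Fibroblast markers summed to 72750 CPM in fibroblast-like, 37310 CPM in mesothelial-like and 25790 CPM in pericyte-like wells, so this list alone did not set the stromal classes apart. Mesothelial and pericyte markers were each highest in the class of their name, at 1632 and 5648 CPM. Dendritic-like wells held macrophage markers at 1202 CPM beside 1393 CPM of their own list. Fibroblast markers also reached 2952 CPM in T cell-like and 3615 CPM in neutrophil-like wells, and the part of free RNA in the levels below was not tested. A further 37 fibroblast wells with at least 2 Ptprc (CD45) or Epcam transcripts were set aside.

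On the plates with at least 10 fibroblast-like wells, Zeb1 itself was read in these wells at 93.0 CPM on FibCtrl 1 and 83.4 CPM on FibCtrl 4, against 43.7, 48.0 and 28.3 CPM on FibΔZeb1 1, 3 and 4. Each of these 3 FibΔZeb1 plates lay below both of these FibCtrl plates. The plates with fewer fibroblast-like wells did not follow this order, since FibCtrl 2 and 3 held 0 Zeb1 transcripts in 3 and 9 wells, which allows up to 37.5 and 41.0 CPM, and FibΔZeb1 2 held 3 transcripts in 6 wells (44.0 CPM). The log2 difference between FibΔZeb1 and FibCtrl was -1.13 (SE 0.29, edgeR quasi-likelihood test, adjusted p = 0.477 over all genes), and 3′ tags may lie outside the deleted exon, so this check of the labels was limited.

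The 8 genes lie on 6 chromosomes (GENCODE M21, GRCm38). Cxcl9 (chr5:92321347-92328079) and Cxcl10 (chr5:92346638-92348889) are neighbours on the minus strand, and Cxcl13 (chr5:95956951-95961068) lies on the plus strand of the same chromosome. Cxcl12 is at chr6:117168535-117181367, Cxcl16 at chr11:70453983-70459984, Cxcr3 at chrX:101731535-101734269, Cxcr4 at chr1:128588199-128592293 and Cxcr6 at chr9:123806475-123811760. All are annotated as protein coding. The 250 bases before the start of Cxcl9 and Cxcl10 are shown because these neighbouring genes share receptor and inducer. The sequences are from RefSeq (GRCm38.p6), 5′ to 3′ on the minus strand, chr5:92328080-92328329 for Cxcl9 and chr5:92348890-92349139 for Cxcl10. Capitals mark matches to a core interferon-stimulated response element (GAAANNGAA) or a kappa B motif, searched on both strands together with the gamma-activated site (TTCNNNGAA).
Cxcl9: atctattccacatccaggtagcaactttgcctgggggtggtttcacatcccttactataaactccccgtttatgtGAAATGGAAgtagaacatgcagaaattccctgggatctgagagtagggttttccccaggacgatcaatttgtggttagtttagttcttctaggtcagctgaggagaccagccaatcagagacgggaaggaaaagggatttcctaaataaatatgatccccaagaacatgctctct
Cxcl10: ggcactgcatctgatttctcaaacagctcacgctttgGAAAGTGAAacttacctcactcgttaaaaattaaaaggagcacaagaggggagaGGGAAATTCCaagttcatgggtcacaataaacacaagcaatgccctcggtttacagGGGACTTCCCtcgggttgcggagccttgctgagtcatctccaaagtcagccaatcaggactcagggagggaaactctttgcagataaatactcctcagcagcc
Cxcl10 held 1 interferon-stimulated response element core, 213 to 205 bases before the start, and 2 kappa B matches, at 159 to 150 and 103 to 94 bases. Cxcl9 held 1 interferon-stimulated response element core, 175 to 167 bases before the start, and no exact match to the kappa B pattern searched. Near matches to the patterns were not counted. None of the matches overlapped another, and neither gene held a gamma-activated site in this window. Of 32851 windows of this length, 7.13% held the interferon-stimulated response element core, 7.02% the gamma-activated site and 3.9% a kappa B match. Entries were matched for 7 of the 8 genes, and Cxcl9 and Cxcl10 alone among these 7 held a match to any of the 3 motifs.

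In the kept wells, at least 1 Cxcl9 transcript was found in 77 of 1831 and at least 1 Cxcl10 transcript in 182, with 24 wells holding both. With at least 5 transcripts, 14 wells held Cxcl9, 39 held Cxcl10 and 5 held both.

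**Figure D1:**
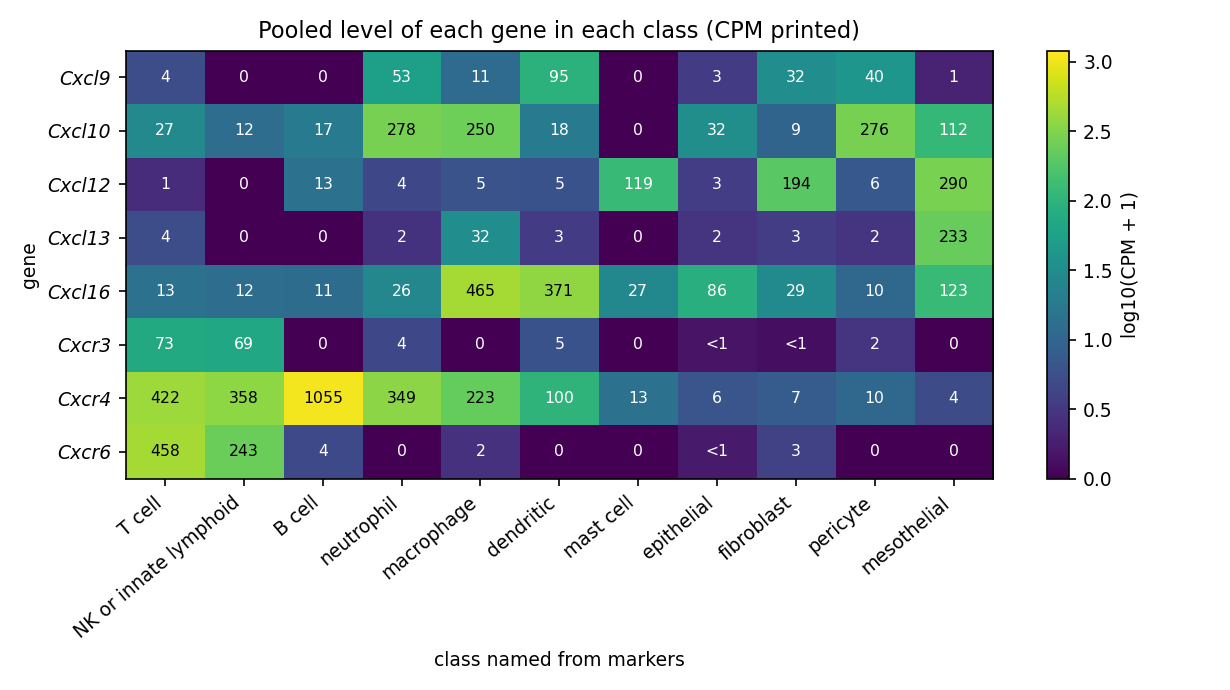
Level of each of the 8 genes (CPM, log axis) in the cell classes, pooled over the wells of all plates. Cxcr6 and Cxcr3 were highest in T cell-like wells at 458 and 73.4 CPM, Cxcr4 in B cell-like wells at 1055 CPM, Cxcl16 in macrophage-like wells at 465 CPM, and Cxcl12 in mesothelial-like and fibroblast-like wells at 289.6 and 194 CPM.

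Cxcr6, the receptor for CXCL16, was read almost entirely in T cell-like and NK or innate lymphoid-like wells. Pooled over plates it reached 458 CPM in T cell-like wells (95% exact Poisson interval 409 to 511, 318 transcripts in 66 of 146 wells) and 243 CPM in NK or innate lymphoid-like wells (150.2 to 371, 21 transcripts). These intervals, like all others here, cover counting error only. Neutrophil-like, dendritic-like, mast cell-like, mesothelial-like and pericyte-like wells held 0 Cxcr6 transcripts, which in neutrophil-like wells allows up to 5.52 CPM, and no other named class exceeded 3.79 CPM. By plate, T cell-like wells held 289 CPM on FibCtrl 1, 675 on FibCtrl 3, 665 on FibCtrl 4, 404 on FibΔZeb1 1, 0 on FibΔZeb1 2, 586 on FibΔZeb1 3 and 584 on FibΔZeb1 4. FibΔZeb1 2 was the exception, with 0 Cxcr6 transcripts among the 35846 transcripts of its 12 T cell-like wells, which allows up to 83.7 CPM. T cell-like wells exceeded fibroblast-like wells, the next class with enough shared plates, on 5 of 5 plates by 5.36 ± 0.54 (SD) in log2(CPM + 10), with p = 0.0625 in a two-sided exact sign-flip permutation test, the smallest that 5 plates allow (adjusted p = 0.312 over the 25 neighbouring pairs tested).

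Cxcr3, the receptor for CXCL9 and CXCL10, was restricted in a like way, with fewer transcripts. T cell-like wells held 73.4 CPM (54.7 to 96.5, 51 transcripts in 30 wells), and NK or innate lymphoid-like wells held 69.3 CPM from 6 transcripts. Macrophage-like and B cell-like wells held 0 transcripts, allowing up to 1.72 and 5.68 CPM. Across the 7 plates with at least 10 T cell-like wells the level was 73.9 ± 21.7 CPM (SD, n = 7), between 49.0 CPM on FibΔZeb1 1 and 112 CPM on FibΔZeb1 2. FibΔZeb1 2, which held no Cxcr6 transcript in these wells, thus had the highest Cxcr3 level, although from 4 transcripts. T cell-like wells exceeded neutrophil-like wells on 6 of 6 plates by 2.71 ± 0.53 (SD) in log2(CPM + 10) (p = 0.0312, two-sided exact sign-flip permutation test, adjusted p = 0.26).

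Cxcr4, the receptor for CXCL12, was the only one of the 3 receptors read in most leukocyte classes. It was highest in B cell-like wells at 1055 CPM (969 to 1147, 557 transcripts in 116 of 143 wells). T cell-like wells held 422 CPM (375 to 473), NK or innate lymphoid-like wells 358 CPM, neutrophil-like wells 349 CPM, macrophage-like wells 223 CPM and dendritic-like wells 100.3 CPM. Pericyte-like, fibroblast-like, epithelial-like and mesothelial-like wells lay between 4.2 and 9.99 CPM, and mast cell-like wells held 13.3 CPM. By plate, B cell-like wells held 1055 CPM on FibCtrl 1, 1208 on FibΔZeb1 2 and 564 on FibΔZeb1 4, above the T cell-like wells on each of these 3 plates, which were too few for a test. T cell-like and neutrophil-like wells did not differ beyond their spread, with a difference of -0.71 ± 2.29 (SD) in log2(CPM + 10) (p = 0.531, two-sided exact sign-flip permutation test). Macrophage-like wells exceeded fibroblast-like wells on 5 of 5 plates by 3.80 ± 0.85 (SD), with p = 0.0625, the smallest that this exact permutation test allows.

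In T cell-like wells, Cxcr4 stood at 482 CPM on FibCtrl 1, 638 on FibCtrl 3, 259.8 on FibCtrl 4, 526.5 on FibΔZeb1 1, 0 on FibΔZeb1 2, 384 on FibΔZeb1 3 and 172 on FibΔZeb1 4. The T cell-like wells of FibΔZeb1 2 therefore lacked transcripts of both Cxcr4 and Cxcr6, while the B cell-like wells of the same plate held the highest Cxcr4 level of any B cell class. Those 12 wells held 34 Cd4 transcripts (948 CPM, in 8 wells), so the T helper co-receptor was read there. They also held Tcf7 and Lef1, transcription factors of naive and memory T cells, at 614 and 530.0 CPM, and Cd69, an early activation and residency marker, at 27.9 CPM from 1 transcript. Whether the makeup of these 12 wells bears on the gap was not tested.

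**Figure D2:**
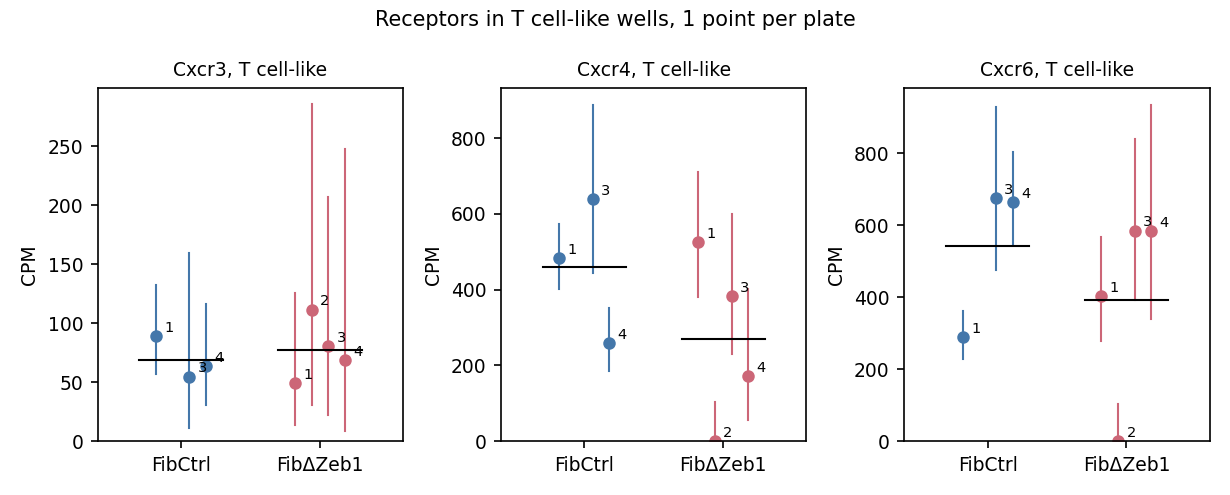
Cxcr3, Cxcr4 and Cxcr6 levels (CPM) in T cell-like wells of each plate with at least 10 such wells. Points are plates numbered by replicate, vertical lines are 95% exact Poisson intervals and black bars are group means. FibΔZeb1 2 sits at 0 for Cxcr4 and Cxcr6 while its Cxcr3 level is 112 CPM.

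Among neutrophil-like wells, Cxcr4 differed between clusters. The cluster led by Mmp9, which encodes a gelatinase of neutrophil granules, held 543 CPM, against 245 CPM in the cluster led by the chemokine gene Ccl3 and 210.4 CPM in the cluster led by Retnlg. These clusters were formed from the same wells, so no test was made.

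T cell-like wells with and without Cxcr6 differed in genes of T cell trafficking. To set depth aside, every well was thinned to 1000 transcripts in 1 random draw, after which 45 of 145 wells held Cxcr6. Before thinning 66 of 146 wells held it, so some wells counted as without Cxcr6 did carry its transcripts. Klf2, a transcription factor that keeps T cells circulating, was read in 4.44% of the wells with Cxcr6 (2 of 45) and in 35% of those without (35 of 100). S1pr1, the sphingosine phosphate receptor that lets T cells leave tissue and a target of KLF2, was read in 8.89% against 32%. Tcf7 was read in 1 of 45 against 21 of 100 wells, and Lef1 in 4 against 21. At least 1 of these 4 genes was read in 20% of the wells with Cxcr6 and in 61% of those without. The share was lower in wells with Cxcr6 on each of the 7 plates that had any, for instance 20% against 55.6% on FibCtrl 1, 0% against 58.3% on FibCtrl 3 and 25% against 88.9% on FibΔZeb1 3. Without FibΔZeb1 2 the shares were 20% and 59.6%. These 4 genes were picked from the list of T cell state genes after their values were seen, and the wells of a plate share a mouse, so the shares are a description without a test.

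Foxp3, the transcription factor of regulatory T cells, was read in 11.1% of the wells with Cxcr6 and 25% of those without. Cd69 was read in 33.3% against 21%, Itgae, the integrin chain that binds E-cadherin, in 20% against 12%, and Gzmb, a cytotoxic granule protease, in 11.1% against 4%. Cxcr4 divided the T cell-like wells differently. After thinning, 48 wells held Cxcr4, of which 18 also held Cxcr6. S1pr1 was read in 8.33% of the wells with Cxcr4 against 33.0% of those without and Lef1 in 4.17% against 23.7%, as with Cxcr6. Foxp3 went the other way, with 31.2% of the wells with Cxcr4 against 15.5% of those without.

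**Figure D3:**
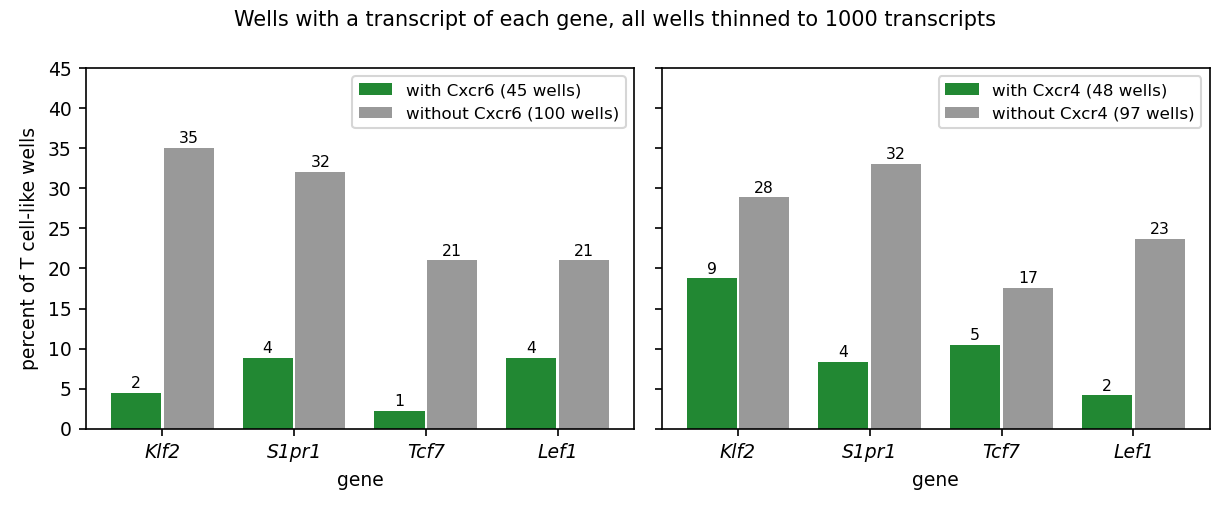
Share of T cell-like wells (percent) with at least 1 transcript of each named gene, among wells with a receptor transcript (green) and without (grey), after thinning every well to 1000 transcripts. Counts of wells stand at the bars. Klf2 was read in 4.44% of the wells with Cxcr6 and 35% of those without.

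Cxcl16, the ligand of CXCR6, was highest in macrophage-like and dendritic-like wells. Macrophage-like wells held 465 CPM (434 to 498, 812 transcripts in 108 of 174 wells) and dendritic-like wells 371 CPM. Mesothelial-like wells held 123 CPM, with a transcript in 30 of 34 wells, epithelial-like wells 85.9 CPM (80.9 to 91.0, in 226 of 380 wells), fibroblast-like wells 28.6 CPM, neutrophil-like wells 25.7 CPM from 14 transcripts, and T cell-like wells 13.0 CPM. The ligand and its receptor thus lay in different classes, since macrophage-like wells held 1.72 CPM of Cxcr6 and dendritic-like wells 0 transcripts, which allows up to 7.52 CPM. By plate, macrophage-like wells held 649 CPM of Cxcl16 on FibCtrl 1, 579.5 on FibCtrl 3, 399 on FibCtrl 4, 566 on FibΔZeb1 1, 229 on FibΔZeb1 3 and 235 on FibΔZeb1 4. They exceeded epithelial-like wells on 6 of 6 plates by 2.29 ± 0.75 (SD) in log2(CPM + 10) (p = 0.0312, two-sided exact sign-flip permutation test, adjusted p = 0.26).

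Within these classes Cxcl16 was uneven between clusters. The large macrophage cluster led by Mmp12, a macrophage elastase, held 509 CPM, and the cluster led by Alox15 and Saa3 held 133 CPM, with 73.9% of its 23 wells from FibCtrl 3. Among epithelial-like wells, the cluster led by Wfdc2 held 154 CPM with a transcript in 86 of 111 wells. The clusters led by Rspo3, a Wnt pathway agonist, by Clca6 and by Tgm3 held 74.1, 47.0 and 38.3 CPM, and 86.8% of the wells of the Clca6 cluster came from FibΔZeb1 2. Epithelial-like wells ranged from 50.1 CPM on FibΔZeb1 4 to 157 CPM on FibCtrl 4.

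Cxcl12, the ligand of CXCR4, was a stromal transcript. Mesothelial-like wells held 289.6 CPM from 276 transcripts in 16 wells, of which 121 lay in 1 well. Fibroblast-like wells held 194 CPM (179 to 209, 670 transcripts in 63 of 145 wells). Mast cell-like wells held 119 CPM, which rested on 9 transcripts, 8 of them in 1 well. B cell-like wells held 13.3 CPM and every other named class at most 5.99 CPM. Ligand and receptor again lay in separate classes, with Cxcr4 at 6.94 CPM in fibroblast-like wells and 4.2 CPM in mesothelial-like wells.

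Fibroblast-like wells fell into a pair of clusters that differed in Cxcl12. The cluster led by Dpt and Sfrp4, genes of adventitial fibroblast matrix and Wnt inhibition, held 284 CPM (260.1 to 310.1, in 46 of 66 wells). The cluster led by Tnc and Tagln, a matrix glycoprotein and a contractile protein of activated fibroblasts, held 96.8 CPM (in 17 of 79 wells). On the plates with at least 5 wells of both clusters, the Dpt cluster was the higher one, at 317 against 237 CPM on FibCtrl 1, 138 against 17.4 on FibCtrl 4, 154 against 73.1 on FibΔZeb1 3 and 446 against 287 on FibΔZeb1 4. By plate, all fibroblast-like wells together held 284 CPM on FibCtrl 1, 118 on FibCtrl 4, 2.91 on FibΔZeb1 1, 108 on FibΔZeb1 3 and 392 on FibΔZeb1 4. FibΔZeb1 1 stood far below the others with 2 transcripts in 23 wells, and 21 of these wells belonged to the Tnc cluster, which held 3.38 CPM on this plate.

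Cxcl13 was rare. Mesothelial-like wells held 233 CPM, but 214 of the 222 transcripts lay in 1 well of FibΔZeb1 4, which also held 55 Cxcl12 transcripts among its 8948. Macrophage-like wells held 31.5 CPM from 55 transcripts in 4 wells, all of the Alox15 and Saa3 cluster, where the level was 270.0 CPM (203 to 352). By plate these transcripts gave 84.0 CPM on FibCtrl 3 and 133 CPM on FibCtrl 4, while the macrophage-like wells of the other 4 plates held 0 transcripts, which allows up to 24.4 CPM on FibCtrl 1 and 20.2 CPM or less on FibΔZeb1 1, 3 and 4. The Alox15 and Saa3 cluster had 23 wells on 4 plates, 73.9% of them from FibCtrl 3, so these 0 counts say little about it. Cxcr5, the receptor of CXCL13, was read at 602 CPM in B cell-like wells and 17.3 CPM in T cell-like wells. Cxcl13 had no row in the tables of FibCtrl 1 and FibCtrl 2, and Cxcr3 had none in that of FibCtrl 2, which was taken as 0 transcripts.

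Cxcl10 had several sources that did not separate. Neutrophil-like wells held 278 CPM (151 transcripts in 19 wells), pericyte-like wells 276 CPM (138 transcripts in 4 wells), macrophage-like wells 249.8 CPM (436 transcripts in 32 wells), mesothelial-like wells 112 CPM, epithelial-like wells 32.3 CPM and T cell-like wells 27.4 CPM. Fibroblast-like wells held 8.96 CPM. Macrophage-like and neutrophil-like wells differed by 0.02 in log2(CPM + 10), which was not larger than the spread between plates (p = 1.0, two-sided exact sign-flip permutation test). Neutrophil-like wells exceeded epithelial-like wells on 7 of 7 plates by 3.25 ± 1.84 (SD), with p = 0.0156 in the same exact permutation test and no call after adjustment over the 25 pairs.

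Cxcl9 was scarcer and had no class that carried it broadly. Dendritic-like wells held 95.2 CPM from 38 transcripts in 5 of 32 wells. Neutrophil-like wells held 53.3 CPM, from 29 transcripts of which 27 lay in 1 well. Fibroblast-like wells held 31.5 CPM from 109 transcripts in 8 wells, of which 87 lay in 1 well of FibΔZeb1 1 with 82808 transcripts. Macrophage-like wells held 10.9 CPM. Among the fibroblast wells set aside for Ptprc or Epcam transcripts, 1 well of FibCtrl 1 held 101 Cxcl9 transcripts.

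How far a ligand was spread over wells differed between genes and classes. In the same macrophage-like wells, the single highest well held 4.32% of Cxcl16 transcripts and 22.9% of Cxcl10 transcripts, and the 5 highest held 18.7% and 66.3%. For Cxcl12 in fibroblast-like wells the highest well held 11.7%, against 79.8% for Cxcl9 in those wells. In mesothelial-like wells Cxcl12 was less evenly spread, with 43.8% in the highest well and 84.1% in the 5 highest. The highest well held 96.4% of Cxcl13 in mesothelial-like wells and 42.2% of Cxcl10 in epithelial-like wells. The receptors were spread out, with 7.23% of Cxcr6 and 7.84% of Cxcr3 in the highest T cell-like well and 2.87% of Cxcr4 in the highest B cell-like well. A level of Cxcl9, Cxcl10 or Cxcl13 on a plate can thus rest on 1 well, as with Cxcl10 in macrophage-like wells of FibΔZeb1 4, at 276 CPM with and 13.4 CPM without the highest well.

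**Figure D4:**
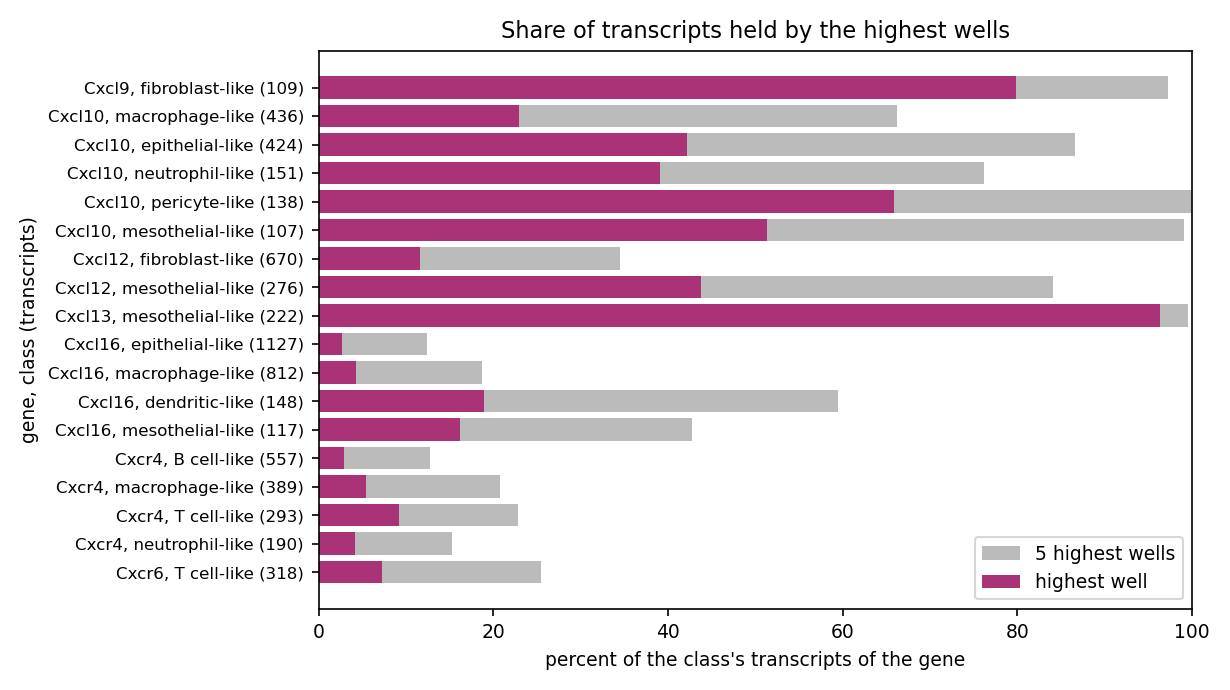
Percent of a gene's transcripts in a class that lay in the single highest well (purple) and in the 5 highest wells (grey), for pairs of gene and class with at least 100 transcripts. Cxcl13 in mesothelial-like wells stands at 96.4% for 1 well, and Cxcl16 in epithelial-like wells at 2.66%.

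No gene of the set was called different between FibΔZeb1 and FibCtrl in any class by the test across all genes. Of 48 pairs of gene and class, 12 passed the filter on low counts in a class with enough plates. None of the 12 was called at an adjusted p under 0.05 by edgeR, 0 had an unadjusted p under 0.05, and DESeq2 called 0 of 12. The share called among all genes tested was 0.0122% in fibroblast-like wells (1 of 8217), 0% in epithelial-like wells (0 of 10270), 0% in macrophage-like wells (0 of 4471), 0.0942% in neutrophil-like wells (1 of 1062), 0.0915% in T cell-like wells (1 of 1093) and 0% in B cell-like wells (0 of 4963). These fits called almost nothing, so a count of 0 among the 12 is not a result about these genes. The estimates were lower in FibΔZeb1 in 7 pairs and higher in 5.

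In T cell-like wells, the mean levels of Cxcr6 and Cxcr4 were lower in FibΔZeb1, within the spread between mice. The mean level of Cxcr3, from few transcripts, was not. Cxcr6 averaged 543 ± 220 CPM (SD, n = 3) in FibCtrl and 393 ± 276 CPM (SD, n = 4) in FibΔZeb1, with a log2 difference of -0.41 (SE 0.58, edgeR adjusted p = 0.964). Cxcr4 averaged 460.1 ± 190.3 CPM and 270.5 ± 232 CPM, with a log2 difference of -0.58 (SE 0.58, edgeR adjusted p = 0.964). Both leaned on FibΔZeb1 2, since without this plate the log2 differences were -0.04 for Cxcr6 and -0.23 for Cxcr4. The sample titles name no flow cell. Identifiers carried with the deposited counts were read as 2 flow cells, replicates 1 and 2 on 1 of them and 3 and 4 on the other. On the first, Cxcr6 stood at 289 CPM on 1 FibCtrl plate against a mean of 202 CPM on 2 FibΔZeb1 plates. That mean was lower only through FibΔZeb1 2 at 0 CPM, since FibΔZeb1 1 lay above FibCtrl 1. On the second, the means were 670.0 CPM in FibCtrl and 585 CPM in FibΔZeb1 (n = 2 each). Cxcr3 averaged 69.0 ± 17.8 CPM (SD, n = 3) in FibCtrl and 77.5 ± 26.2 CPM (SD, n = 4) in FibΔZeb1, from 37 and 14 transcripts. It was not tested because it did not pass the filter. Its share of wells went the other way, at 23.3% in FibCtrl and 13.9% in FibΔZeb1 before thinning. In B cell-like wells, the log2 difference of Cxcr4 was -0.18 (SE 0.47, edgeR adjusted p = 0.999) with 1 FibCtrl plate and 2 FibΔZeb1 plates.

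In neutrophil-like wells Cxcr4 stood at 84.7, 185 and 344 CPM on FibCtrl 2, 3 and 4, and at 254, 249.6, 429.9 and 597 CPM on FibΔZeb1 1 to 4. The FibΔZeb1 mean was higher, at 383 ± 166 CPM (SD, n = 4) against 205 ± 131 CPM (SD, n = 3), but the groups overlapped. The log2 difference was 0.86 (SE 0.49, edgeR adjusted p = 0.961). On the first flow cell the FibΔZeb1 mean was 252 CPM (n = 2) against 84.7 CPM on FibCtrl 2 alone. FibCtrl 2 was the plate with the fewest cell transcripts and held 26 neutrophil-like wells. On the second flow cell the FibΔZeb1 mean was 513 against 264 CPM (n = 2 each). The mix of clusters differed between plates, and 35.0% of the 103 wells of the Mmp9 cluster came from FibΔZeb1 4, the plate with the highest level. The part of this mix in the difference was not tested. Macrophage-like wells gave a log2 difference of 0.26 (SE 0.47, edgeR adjusted p = 0.999) for Cxcr4, which became -0.13 without FibCtrl 4.

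Cxcl16 in macrophage-like wells averaged 543 ± 129 CPM in FibCtrl and 344 ± 193 CPM in FibΔZeb1 (SD, n = 3 each). The groups overlapped, since FibΔZeb1 1 at 566 CPM lay above FibCtrl 4 at 399 CPM. The log2 difference was -0.65 (SE 0.39, edgeR adjusted p = 0.999), and -1.25 without FibΔZeb1 1. In fibroblast-like wells the direction was the opposite, with 22.8 and 11.5 CPM on FibCtrl 1 and 4 and 29.1, 28.4 and 67.1 CPM on FibΔZeb1 1, 3 and 4. The groups did not overlap on these plates, the only ones with at least 10 fibroblast-like wells. With 2 against 3 plates such an order carries little weight, and the share of all genes with it was not counted. The log2 difference was 1.13 (SE 0.54, edgeR adjusted p = 0.841). In epithelial-like wells the log2 difference was -0.10 (SE 0.38, edgeR adjusted p = 0.999).

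Cxcl12 in fibroblast-like wells averaged 201 ± 117 CPM (SD, n = 2) in FibCtrl and 168 ± 201 CPM (SD, n = 3) in FibΔZeb1. The FibΔZeb1 plates spanned both the lowest and the highest level, and the log2 difference was -0.35 (SE 1.16, edgeR adjusted p = 0.992). It became 0.26 without FibΔZeb1 1 and 0.42 without FibCtrl 1, so that no direction could be given.

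The interferon-induced ligands rested on few wells in these comparisons. Cxcl10 in macrophage-like wells averaged 274 ± 253 CPM (SD, n = 3) in FibCtrl and 212 ± 97.2 CPM (SD, n = 3) in FibΔZeb1 (log2 difference -0.45, SE 0.62, edgeR adjusted p = 0.999). Without FibCtrl 3, where 1 well held 100 Cxcl10 transcripts, the log2 difference was 0.64. In neutrophil-like wells Cxcl10 averaged 163 ± 113 CPM (SD, n = 3) and 284 ± 266 CPM (SD, n = 4), with a log2 difference of 0.84 (SE 0.70, edgeR adjusted p = 0.961) that became -0.15 without FibΔZeb1 3. Cxcl9 in fibroblast-like wells stood at 12.9 and 0 CPM in FibCtrl and at 130, 0 and 21.2 CPM in FibΔZeb1, with a log2 difference of 2.83 (SE 1.503, edgeR adjusted p = 0.897). Without the highest well of each plate, FibΔZeb1 1 stood at 2.91 CPM and FibΔZeb1 4 at 0 CPM.

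**Figure D5:**
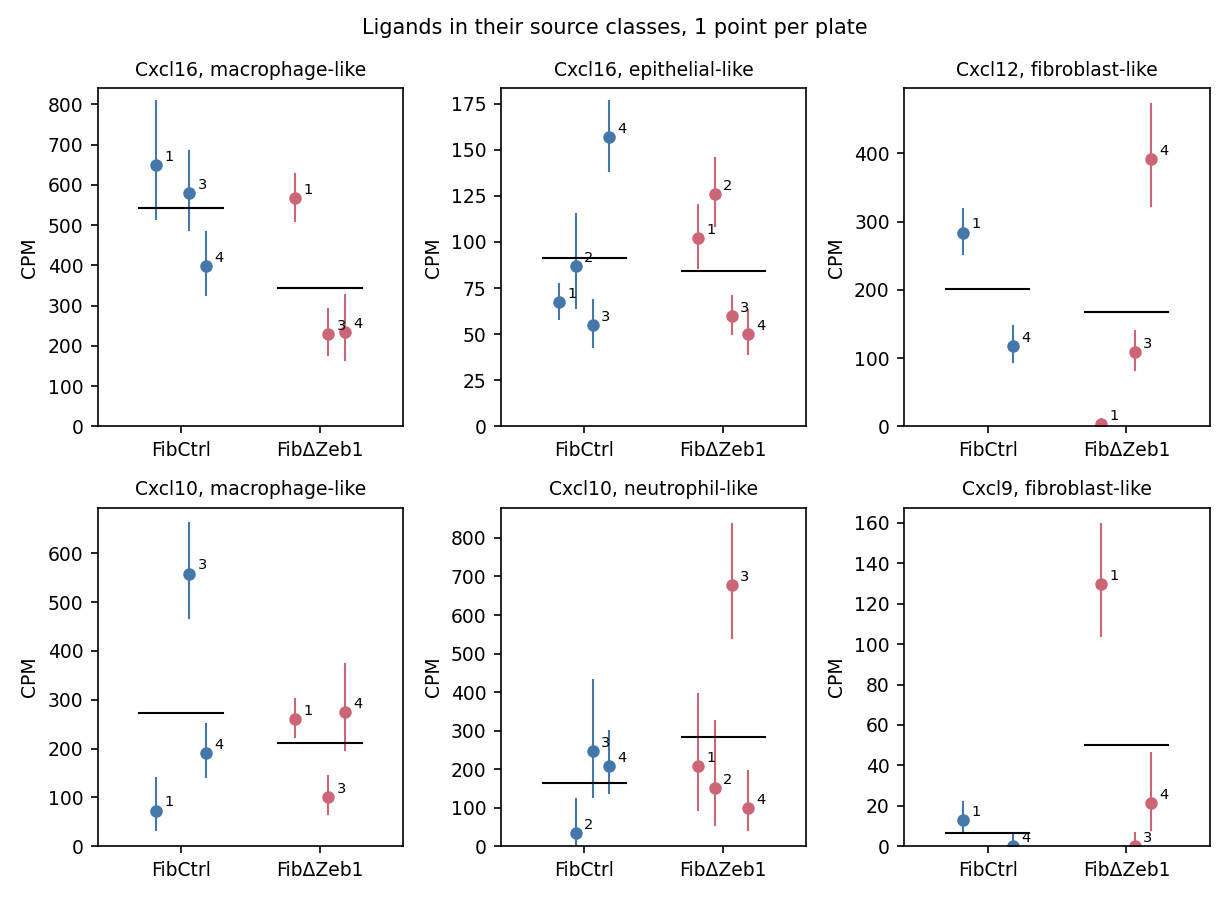
Ligand levels (CPM) by plate in the classes that carried them, for plates with at least 10 wells of the class. Points are plates numbered by replicate, vertical lines are 95% exact Poisson intervals and black bars are group means. Macrophage Cxcl16 ran from 229 to 649 CPM with overlapping groups, and fibroblast Cxcl12 from 2.91 to 392 CPM.

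Shares of wells with a transcript, after thinning to 1000 transcripts, gave no call either. T cell-like wells held Cxcr6 in 35.8 ± 15.4% (SD, n = 3) on FibCtrl and 25.5 ± 23.1% (SD, n = 4) on FibΔZeb1 plates (p = 0.514, two-sided exact permutation test, adjusted p = 0.84). Cxcr4 was read in 37.7 ± 12.0% and 22.5 ± 17.3% (p = 0.286, exact permutation test, adjusted p = 0.84), and Cxcr3 in 9.82 ± 6.57% and 6.97 ± 4.86% (p = 0.543, exact permutation test, adjusted p = 0.84). The smallest p this exact test allows is 0.0286. On epithelial-like wells, where these receptors are background, the shares by plate were at most 1.49% for Cxcr4 and 0% for Cxcr3 and Cxcr6. Cxcl16 in macrophage-like wells was read in 18.5 ± 7.79% on FibCtrl and 28.7 ± 13.5% on FibΔZeb1 plates (p = 0.4, exact permutation test, adjusted p = 0.84, smallest possible p 0.1), whereas its level and its unthinned share went the other way.

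Genes that act with these chemokines were followed as 4 lists, and none of the listed genes tested was called in any class by edgeR. An unadjusted p under 0.05 was reached in 15 of 179 tests of a gene in a class (8.38%), beside 3.44% of the tests over all genes and classes. The lists were chosen with earlier results of these data known, so the higher share is no evidence about these genes. In T cell-like wells, 5 partner genes had a median log2 difference of 0.03, 6 genes of the interferon gamma response -0.15, 10 receptor signalling genes -0.18 and 10 T cell state genes 0.10, beside 0.01 over all 1093 genes. In macrophage-like wells, 11 interferon gamma response genes had a median of -0.20, beside -0.02 over all genes. In neutrophil-like wells, 3 partner genes had a median of 1.38 and 8 receptor signalling genes -0.42, beside 0.03 over all genes. Ifng, which encodes the inducer of Cxcl9 and Cxcl10, was read in T cell-like wells at 321 CPM and in NK or innate lymphoid-like wells at 116 CPM. Most of it came from FibCtrl 1, where 197 transcripts in 4 wells gave 731 CPM, while FibCtrl 3 and 4 stood at 73.0 and 63.4 CPM and FibΔZeb1 3 at 242 CPM from 12 transcripts in 1 well. T cell-like wells of FibΔZeb1 1, 2 and 4 held 0 Ifng transcripts, which allows up to 36.7, 83.7 and 103 CPM, and those of FibCtrl 2 held 0 in 5 wells. Dpp4, the peptidase that trims and inactivates CXCL10, had normalised levels in fibroblast-like wells of 116 ± 7.81 CPM (SD, n = 2) in FibCtrl and 20.6 ± 23.8 CPM (SD, n = 3) in FibΔZeb1. The log2 difference between the genotypes was -2.81 for Dpp4 (SE 0.68, adjusted p = 0.416 by edgeR). Irf8, a transcription factor of myeloid cells and of the interferon gamma response, went the other way in these wells, at 3.10 ± 4.38 CPM and 29.4 ± 11.7 CPM (log2 difference 3.03, SE 0.86, adjusted p = 0.657 by edgeR). The mix of the Dpt and Tnc clusters differed between plates, with 46.2% of the 78 wells of the Dpt cluster, those set aside included, from FibCtrl 1, and its part in these differences was not tested.

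For each gene, the 3 genes whose levels over 10 classes were most like it were taken from 11901 genes. By this measure, Cxcr6 was most like Skap1, Folr4 and Zap70 (Pearson r = 0.9985 for Skap1), Cxcr3 was most like Cd96, Nkg7 and Zap70 (r = 0.997 for Cd96), and Cxcr4 was most like Arhgap4, Ncoa3 and Adrbk1 (r = 0.98 for Arhgap4). Cxcl12 was most like Ccbe1, Hand2 and Ptgis (r = 0.997 for Ccbe1), and Cxcl16 like Slc7a7 and Renbp (r = 0.92 for Slc7a7). Cxcl13 was most like Stab1, Abcc3 and Arg1 (r = 0.96 for Stab1), Cxcl9 like Arhgap24, 6030408B16Rik and Mcam (r = 0.93 for Arhgap24), and Cxcl10 like Fabp5, Fhod1 and Tmem194 (r = 0.84 for Fabp5). The classes share plates and differ in depth, and these correlations are descriptions over 10 points.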

How the data were processed

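Per the labels and the study's methods, reads were aligned by the provider with BWA to mouse transcripts of the GRCm38 build, and the submitters' processing notes also name Cell Ranger 2.1.1. The values the authors deposited were estimated counts of transcripts per gene and well, that is molecular identifiers corrected for collisions, not scaled to depth. Strand use in counting is not given in the sources used here, and no record of sort gates per well was used here. Wells were clustered by Leiden (2000 genes without the 8 members, 20 principal components, 15 neighbours, resolution 1, leidenalg 0.10.2, scikit-learn 1.9.0, Python 3.11.15). A cluster was named where its marker score reached 0.5 with at least 3 markers in 10% of wells. No doublet caller was run.

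Counts were summed per class and plate (at least 10 wells), rounded, and tested with edgeR 4.0.16 (R 4.3.3, TMM, filterByExpr, quasi-likelihood, genotype only) with Benjamini-Hochberg adjustment over all genes tested. The study's own tests compared cells, so sums per mouse were used in their place. Neighbouring classes were compared on log2(CPM + 10). A count of 0 allows up to 3 counts. All 8 genes, genes of 4 lists, the 3 most alike genes per member (at least 100 transcripts) and Zeb1 were named, except a few genes that are not reported here. Members and lists were chosen with earlier results of these data known. The edgeR fits were also run on simulated counts in which all genes had the same dispersion, and no result here rests on that run. Alternatives were DESeq2 1.42.0, other size factors, no filter, other minimum wells and thinning depths, class rules, flow cell, replicate block and leaving out plates. The labels number the replicates from 1 to 4 in each group, and these numbers were not used to pair the plates.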

Additional observations from a re-analysis of the deposited data

How the results depend on the processing

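Across 32 values of single members, 356 recomputed values were obtained, of which 323 kept direction and side of the threshold, 32 reversed and 1 passed the threshold. That 1 was Cxcl9 in fibroblast-like wells, at 2.79 (edgeR adjusted p = 1.64e-05) without the filter on low counts. Of the 109 Cxcl9 transcripts in these wells, 87 lay in 1 well of FibΔZeb1 1, so this value is not evidence of a difference between mice. The log2 difference of Cxcl12 in fibroblast-like wells turned to 0.11 with 5 wells per plate, 0.16 with classes from marker sums, 0.031 without the mitochondrial filter, and -1.95 to 0.42 leaving out single plates (0.26 without FibΔZeb1 1). Leaving out single plates gave ranges that included reversed values for Cxcl16 in epithelial-like wells (-0.35 to 0.25, with 0.065 and 0.089 without FibΔZeb1 3 and 4), Cxcl10 in macrophage-like wells (-0.84 to 0.64), Cxcl10 in neutrophil-like wells (-0.15 to 1.18) and Cxcr4 in macrophage-like wells (-0.13 to 0.59). Between neighbouring classes the ranges were -0.27 to 0.42 for Cxcl10 in epithelial against T cell wells, -0.71 to 0.19 for Cxcl16 in neutrophil against T cell wells, -0.053 to 1.41 for Cxcl13 in macrophage against T cell wells and -1.19 to 0.093 for Cxcr4 in T cell against neutrophil wells, the last without FibΔZeb1 2. With 5 wells per plate Cxcl10 in macrophage against neutrophil wells turned to -0.035. Differences in shares turned, in percentage points, for Cxcl10 in macrophage-like wells to -0.841 thinned to 500, -3.56 unthinned, -1.03 with marker sums and -1.93 to 3.83 leaving out single plates, for Cxcl16 in these wells to -13.3 thinned to 500 and -15.0 unthinned, for Cxcl9 to -6.67 unthinned, and for Cxcr3 in T cell-like wells to 0.935 without FibCtrl 4 (range -4.98 to 0.935). The cause was not tested.

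The number of genes called by genotype in fibroblast-like wells (1) was 328 without the filter, 39 by DESeq2, 26 with flow cell as a covariate, 0 with marker sums, 0 with the Ptprc and Epcam wells kept, and 0 to 6 leaving out single plates. In macrophage-like wells (0) it was 41 without the filter, 1 by DESeq2 and 0 to 1 leaving out single plates. In neutrophil-like wells (1) it was 20 without the filter and 1 to 6 leaving out single plates. In T cell-like wells (1) it was 15 without the filter, 0 with DESeq2-type size factors, 2 by DESeq2, 0 with flow cell, 0 with 5 wells per plate, 0 without the mitochondrial filter and 0 to 4 leaving out single plates. In B cell-like wells (0) it was 19 without the filter, 27 with DESeq2-type size factors and 1 by DESeq2, and with 1 FibCtrl plate no plate was left out. In epithelial-like wells it was 0 throughout.

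With the replicate number as a block, 25 genes were called in fibroblast-like, 3 in T cell-like and 1 in neutrophil-like wells, and Cxcr6 in T cell-like wells turned to 0.050. For same-numbered plates, which also share a flow cell, deviations of log CPM from the genotype mean were correlated over genes. These correlations, which are not those of the levels themselves, were 0.553, 0.284, 0.165 and 0.0491 in epithelial-like wells. They were 0.298 and 0.177 in fibroblast-like wells, where the 2 FibCtrl plates deviate by equal and opposite amounts. They ran from -0.232 to 0.501 in neutrophil-like wells. Differently numbered plates were not correlated for comparison. In macrophage-like and T cell-like wells they lay between -0.00462 and 0.18. The labels do not state a pairing and none was used, although these mostly positive values do not exclude one. No block was possible in B cell-like wells.

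With 1 to 4 plates per genotype and class and SEs of 0.38 to 1.503 in log2, precision was low. Levels of mesothelial-like, pericyte-like, dendritic-like and mast cell-like wells rest on few plates.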

Other observations

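The 414 unnamed wells, most of them shallow, held little of any of the 8 genes. Cxcl16 was the most abundant there at 48.0 CPM (64 transcripts in 42 wells), and Cxcl10 stood at 15.7 CPM from 21 transcripts in 16 wells. Cxcr6 and Cxcr3 were read with 2 and 1 transcripts. The 37 fibroblast wells set aside for Ptprc or Epcam transcripts held Cxcl12 at 65.8 CPM and Cxcl16 at 49.2 CPM, with a Cxcl16 transcript in 27 wells.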
